A study of Mus musculus with 4 samples.

Results

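The 9 genes described here encode scaffold proteins of the postsynaptic density: the SHANK family (*Shank1*, *Shank2*, *Shank3*), the DLGAP family, also called SAPAP or GKAP (*Dlgap1* to *Dlgap4*), and the membrane-associated guanylate kinases PSD-93 (*Dlg2*) and PSD-95 (*Dlg4*). They were taken by name from the 23420 gene symbols counted, by a rule that used no measured value but was written with earlier results of these data known, and all 9 passed the filter on low counts. Prefrontal cortex (PFC) of C57BL6/J mice was profiled by RNA-seq in 2 control samples (GFP-AAV9 injected) and 2 *Ash1L* shRNA samples (shRNA_ASH1L-AAV9 injected), from mice that the series gives as 6 to 8 weeks old. The control virus is labelled as GFP AAV9 and is described in the methods as carrying scrambled shRNA. The shRNA was driven by the U6 promoter, which does not restrict it to a cell type, and tissue was punched from the GFP-fluorescent area of the medial PFC after bilateral injection. The methods state that each sample pooled 3 mice, whereas the series text speaks of 3 injected *Ash1L* shRNA mice and 2 control mice, so the number of animals behind each sample is not settled. Total counts per sample ran from 14251190 to 35764874. *Ash1l*, the targeted histone methyltransferase gene, had 245 and 290.1 CPM (counts relative to the library total, corrected by TMM factors) in the control samples and 216 and 138 CPM in the *Ash1L* shRNA samples. Both *Ash1L* shRNA samples lay below both controls, and sample 2 was the lower (log2 fold change -0.60, 95% interval from -1.15 to -0.05).

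The postsynaptic density is a protein mesh under the membrane of excitatory synapses that holds glutamate receptors opposite the site of transmitter release. PSD-95 and PSD-93 bind receptors and adhesion molecules near the membrane through their PDZ domains. DLGAP proteins bind the guanylate kinase domain of these proteins and, through a C-terminal motif, the PDZ domain of SHANK proteins. SHANK proteins lie deeper and connect through Homer and cortactin to metabotropic receptors and actin. Loss of one copy of *SHANK3* is a known cause of autism with intellectual disability in humans, and mice without *Dlgap3* groom excessively.

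Of the 9 scaffold genes, 5 were lower in *Ash1L* shRNA samples by the limits that the study used for differential expression (DOWN, unadjusted P under 0.05 with a fall of 1.2-fold or more), and 0 were UP, the matching call for a rise. Those 5 were *Shank2*, *Shank3*, *Dlgap1*, *Dlgap3* and *Dlgap4*. Among all 16232 genes tested, 8.28% were DOWN and 8.61% were UP. None of the 9 passed an adjusted p of 0.05 in edgeR's quasi-likelihood test, where adjusted p-values of the 9 lay between 0.258 and 0.842 and 0.00616% of all genes passed. Without adjustment, 5 of the 9 had a P under 0.05, against 16.9% of all genes. In DESeq2, 0 of the 9 passed an adjusted p of 0.05 (2.52% of all genes did), the same 5 were DOWN (6.35% of all genes) and 0 were UP (6.16%). The median log2 fold change of the 9 was -0.31, beside a median of 0.00 (-0.0027) over all genes tested. For 7 of the 9 the CPM of each *Ash1L* shRNA sample lay under that of each control, as for 26.8% of all genes, and for 0 of the 9 above it, as for 26.5%. The call of DOWN rested on few samples. With the replicate number of the labels as a block, 2 of the 9 were DOWN (*Shank2* and *Dlgap3*) and 0 were UP, against 6.28% and 6.48% of all genes. A crossed block, added after the data had been seen, paired sample 1 of each group with sample 2 of the other. With it the same 5 were DOWN and 0 were UP, beside 1736 DOWN and 1541 UP among all genes tested. With 1 sample left out at a time, the DOWN calls changed, over all genes as well, so only effect sizes are given. The log2 fold change then ran from -0.78 to -0.28 for *Shank2*, -0.37 to -0.24 for *Shank3* and -0.50 to -0.22 for *Dlgap1*. It ran from -0.68 to -0.35 for *Dlgap3* and from -0.44 to -0.22 for *Dlgap4*. In these fits the sample that stood alone was assumed to vary like the other group.

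**Figure D1:**
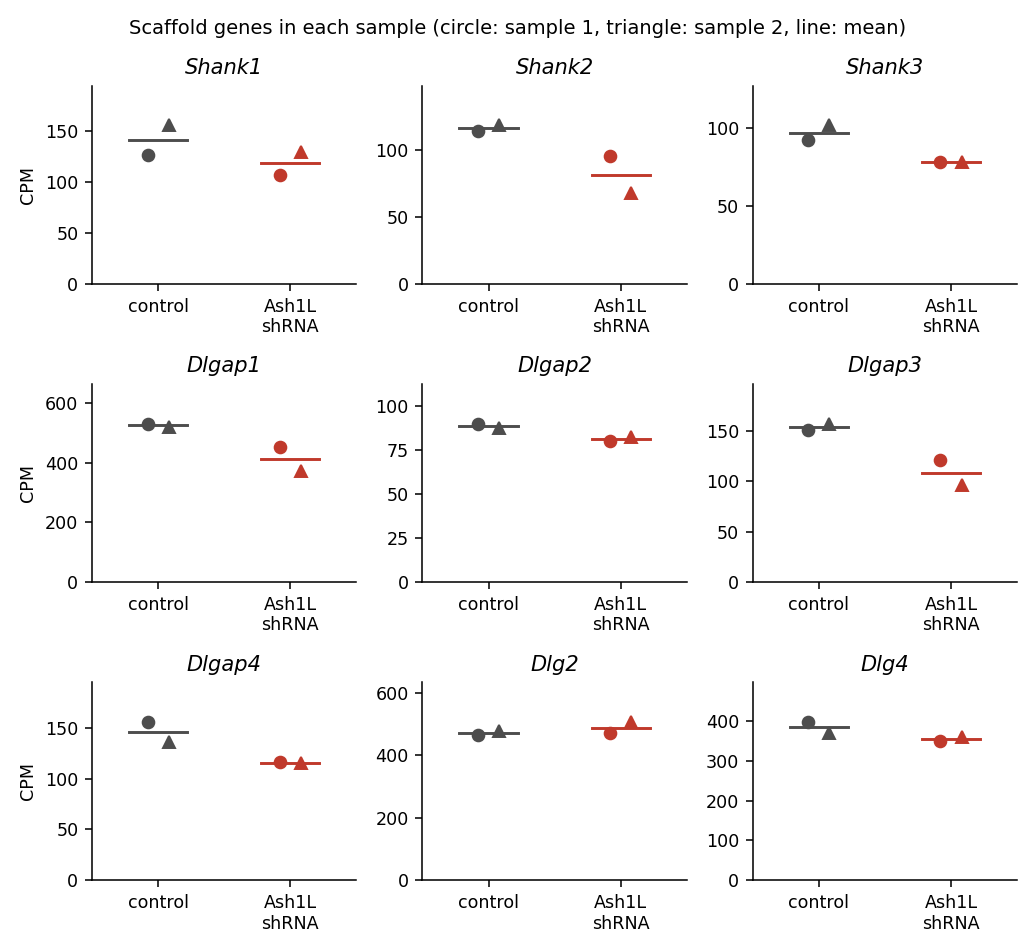
CPM (TMM-normalized, axis from 0) of each scaffold gene in the 2 control and the 2 *Ash1L* shRNA samples, with circles for samples numbered 1, triangles for samples numbered 2 and lines for group means. The groups overlap for *Shank1* and *Dlg2*, and *Ash1L* shRNA samples are the lower for the other 7 genes.

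The SHANK family makes the deep layer of the scaffold. *Shank2* had 114 and 118 CPM in control samples 1 and 2, and 95.2 and 67.6 CPM in *Ash1L* shRNA samples 1 and 2. Both *Ash1L* shRNA samples lay below the controls, and sample 2 lay far below sample 1. For *Shank2* this came to a log2 fold change of -0.51 (standard error 0.17, 95% interval from -0.93 to -0.09). *Shank3* had 91.9 and 101 CPM in the control and 77.9 and 77.9 CPM in the *Ash1L* shRNA samples. The *Ash1L* shRNA samples were nearly equal here, and the fall of 0.31 on the log2 scale (95% interval of the log2 fold change from -0.58 to -0.04) was of the same size in each. *Shank1*, whose transcript is restricted to brain more than those of its relatives, had 126 and 156 CPM in control and 107 and 129.9 CPM in *Ash1L* shRNA samples. Sample 2 of the *Ash1L* shRNA group lay between the controls, so the groups overlapped. The interval for *Shank1*, from -0.63 to 0.12, holds falls as large as those of *Shank3*. With samples left out, the log2 fold change of *Shank1* was -0.39 without *Ash1L* shRNA sample 2 and -0.13 without sample 1. It was -0.38 without control sample 1 and -0.095 without control sample 2.

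DLGAP proteins form the middle layer. *Dlgap3*, known for its high expression in striatum, had 150.3 and 157 CPM in the control and 121 and 96.3 CPM in the *Ash1L* shRNA samples. It had the lowest P of the 9 genes (0.011, adjusted p 0.258, edgeR's quasi-likelihood test), with a log2 fold change of -0.50 (95% interval from -0.84 to -0.16). *Dlgap1*, the gene for GKAP, had 531 and 522 CPM in control and 453 and 374 CPM in *Ash1L* shRNA samples. Its log2 fold change was -0.35 (interval -0.67 to -0.03). Its control samples differed by little, and the *Ash1L* shRNA samples were apart from each other by more than the nearer of them was from the controls. *Dlgap4* had 156 and 136 CPM in the control and 116 and 115 CPM in the *Ash1L* shRNA samples. For *Dlgap4* the log2 fold change was -0.34 (interval -0.62 to -0.05). In this gene the spread was between the controls, and the *Ash1L* shRNA samples were alike. *Dlgap2* had 89.8 and 87.5 CPM in control and 79.7 and 82.5 CPM in *Ash1L* shRNA samples. The groups did not overlap, but the log2 fold change of -0.13 had an interval from -0.38 to 0.13 and was not called.

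The MAGUK proteins sit nearest to the membrane. *Dlg4*, which encodes PSD-95, had 398 and 370.1 CPM in control and 349 and 360.2 CPM in *Ash1L* shRNA samples. *Dlg4* was not called although the groups did not overlap, with a log2 fold change of -0.11 (standard error 0.11, interval from -0.38 to 0.15). *Dlg2* had 465 and 478 CPM in control and 469 and 506 CPM in *Ash1L* shRNA samples. The groups overlapped, and the interval of its log2 fold change of 0.05 ran from -0.22 to 0.32, so that a fall of the size seen in *Shank2* or *Dlgap3* lay outside it. The direction of *Dlg2* was not fixed, since its value turned to -0.015 with a correction for GC content.

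**Figure D2:**
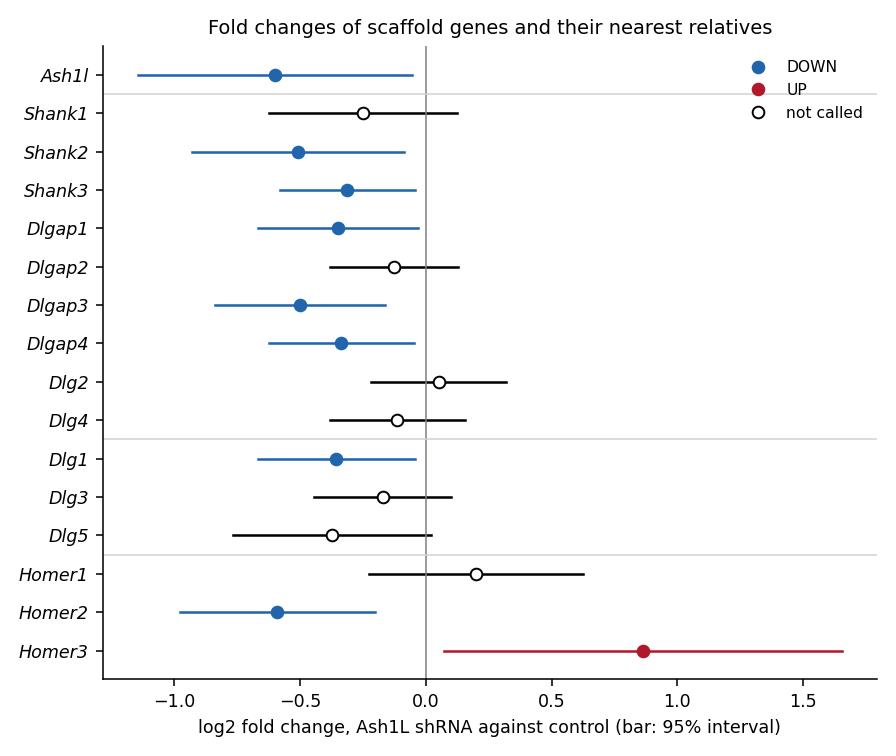
Log2 fold change of *Ash1l*, the 9 scaffold genes, their DLG relatives and the Homer genes (*Ash1L* shRNA against control, 2 samples each), with 95% intervals from edgeR's quasi-likelihood fit and filled points for DOWN (blue) or UP (red) calls. The intervals of *Shank2*, *Shank3*, *Dlgap1*, *Dlgap3* and *Dlgap4* lie below 0, and that of *Dlg2*, from -0.22 to 0.32, spans it.

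Summed over families, SHANK transcripts had 332 and 375 CPM in control and 280.5 and 275 CPM in *Ash1L* shRNA samples, a difference of -21.4%. DLGAP transcripts had 927 and 902 CPM in control and 769 and 668 CPM in *Ash1L* shRNA samples, also a difference of -21.4%. *Dlg2* and *Dlg4* together had 862 and 848 CPM in control and 819 and 867 CPM in *Ash1L* shRNA samples, where the groups overlapped. Ratios of counts within a sample need no scaling between samples. The ratio of DLGAP to DLG counts was 1.07 and 1.06 in control and 0.939 and 0.770 in *Ash1L* shRNA samples. The ratio of SHANK to DLG counts was 0.385 and 0.443 in control and 0.343 and 0.318 in *Ash1L* shRNA samples. Both ratios were lower in each *Ash1L* shRNA sample than in each control, whereas the ratio of SHANK to DLGAP counts overlapped between the groups, at 0.358 and 0.416 in control and 0.365 and 0.412 in *Ash1L* shRNA samples. An exact two-sided permutation test of 2 samples against 2 cannot go below a p of 0.333, so these ratios are given as values. Within the DLGAP family, the ratio of *Dlgap2* to *Dlgap3* counts was 0.597 and 0.558 in control and 0.661 and 0.856 in *Ash1L* shRNA samples. Of the 10 ratios between members of the same family, 5 did not overlap between the groups. Of these, 4 were in the DLGAP family and the other was *Dlg2* to *Dlg4*. These ratios share genes, and among all single genes tested 26.8% did not overlap with lower and 26.5% with higher *Ash1L* shRNA samples. The count is therefore a description only.

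**Figure D3:**
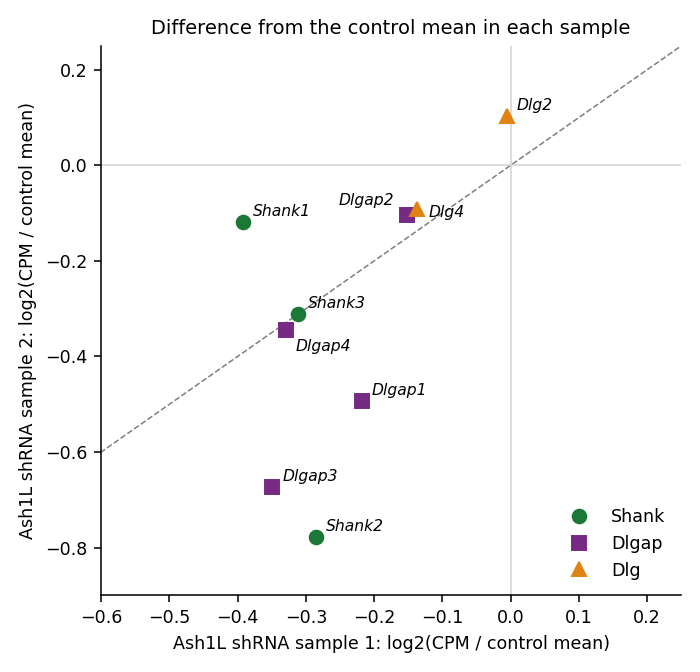
Log2 of CPM over the control mean for each scaffold gene in *Ash1L* shRNA sample 1 (horizontal axis) and sample 2 (vertical axis), with the dashed line where both samples are equal. *Shank2* (-0.28 in sample 1 and -0.78 in sample 2), *Dlgap3* (-0.35 and -0.67) and *Dlgap1* (-0.22 and -0.49) lie below the line, *Shank3* and *Dlgap4* lie on or close to it, and *Shank1* lies above it.

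The *Ash1L* shRNA samples did not differ from the control mean by the same amount in each gene. *Shank2*, *Dlgap1* and *Dlgap3* differed more in sample 2, in which *Ash1l* itself was lower (log2 difference from the control mean -0.31 in sample 1 and -0.96 in sample 2). *Shank3* differed by -0.31 in both samples and *Dlgap4* by -0.33 and -0.34. *Shank1* differed by -0.39 in sample 1 and by -0.12 in sample 2. The median difference over the 9 genes was -0.28 in sample 1 and -0.31 in sample 2. Each gene had at least 1267 counts in every sample, so that the relative counting error was at most 2.81%, whereas replicates differed on the log2 scale by up to 0.30 within the controls (*Shank1*) and up to 0.49 within the *Ash1L* shRNA samples (*Shank2*).

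Levels were compared between genes as CPM per kilobase of merged exons. In the control samples, *Dlgap3* was highest, at 34.0 ± 1.04 (SD, n = 2), followed by *Dlgap1* at 29.4 ± 0.381, *Dlg4* at 29.0 ± 1.47 and *Dlg2* at 28.9 ± 0.560. The last 3 differed from each other by less than the spread of *Dlg4*. *Dlgap4* at 17.2 ± 1.67, *Dlgap2* at 14.4 ± 0.264 and *Shank1* at 13.4 ± 1.97 came next, of which *Dlgap2* and *Shank1* differed by less than the SD of *Shank1*, and *Shank2* at 10.8 ± 0.284 and *Shank3* at 10.5 ± 0.730 were lowest and did not differ beyond their spread. In the *Ash1L* shRNA samples *Dlg2* was highest, at 30.0 ± 1.61, and *Dlgap3* was at 24.0 ± 3.79. *Dlg2* held 15.3% and 15.6% of the level per length summed over the 9 genes in the control samples and 17.9% and 20.1% in the *Ash1L* shRNA samples. *Dlgap3* held 17.8% and 18.4% in the control and 16.5% and 13.8% in the *Ash1L* shRNA samples. The lengths count every annotated exon, so a gene with many alternative exons, such as *Dlg2* with its 37 merged exons, is placed lower than its longest transcript alone would place it. *Dlg4* has 13251 merged exonic bases over 22 transcripts, and *Dlgap3* has 4521 over 4. Before division by length their control means were 384 CPM for *Dlg4* and 154 CPM for *Dlgap3*, so the order of these genes depends on the lengths used.

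**Figure D4:**
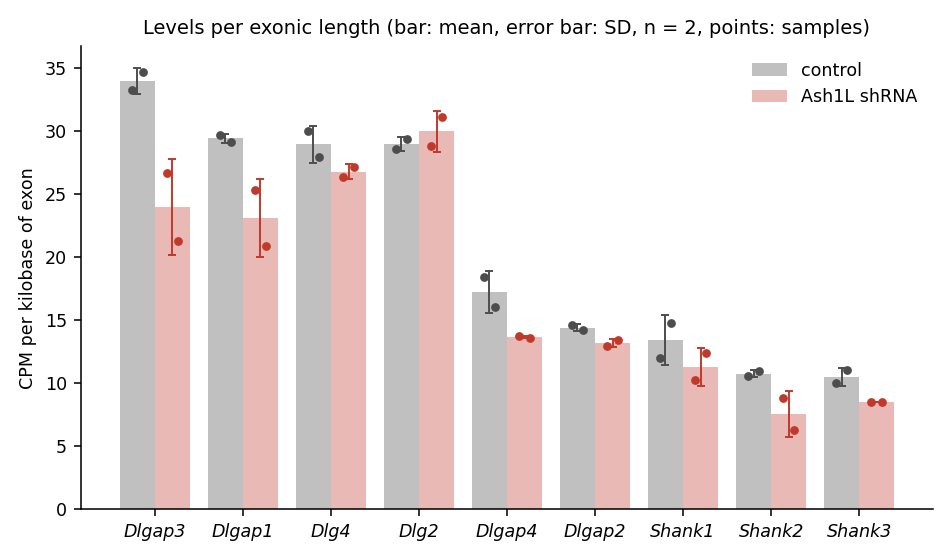
Level of each scaffold gene as CPM per kilobase of merged exons (bars from 0, group mean with SD, n = 2, points for samples), in order of the control mean. *Dlgap3*, *Dlgap1*, *Dlg4* and *Dlg2* stand above the other 5 genes in both groups, and *Dlg2* is highest in the *Ash1L* shRNA group at 30.0.

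The genes range in span (mm10) from 30.6 kb for *Dlg4* (chromosome 11, 70016942 to 70047522) to 1973 kb for *Dlg2* (chromosome 7, 90476672 to 92449247). *Shank2* spans 423 kb and *Dlgap1* 852 kb, whereas *Shank3* (chromosome 15, 89499623 to 89560261) spans 60.6 kb and *Dlgap3* (chromosome 4, 127169204 to 127237022) 67.8 kb, so the DOWN genes include both long and short ones. Values are per gene and sum over transcripts, of which *Dlg4* has 22 and *Dlgap1* 20 in the annotation. At most 3.22% of the exonic bases of any of the 9 genes (*Shank1*) are shared with another annotated gene.

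As the study relates transcription to a promoter mark, the 250 bases before a RefSeq start are shown for *Shank3* and *Dlgap3*. Both are DOWN, and they are furthest apart in GC content among the DOWN genes with an entry. The sequences are from RefSeq (GRCm38.p6), where 6 of the 9 genes had an entry (not *Shank1*, *Shank2* or *Dlgap2*), and the most upstream listed start was used. Capitals mark the GC box, GGGCGG, on either strand.
*Shank3* (chr15:89499358-89499607, plus strand): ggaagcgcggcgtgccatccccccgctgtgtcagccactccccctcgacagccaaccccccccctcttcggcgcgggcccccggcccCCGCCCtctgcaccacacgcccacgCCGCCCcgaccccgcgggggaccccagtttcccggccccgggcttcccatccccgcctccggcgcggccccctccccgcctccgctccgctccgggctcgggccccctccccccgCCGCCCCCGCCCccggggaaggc
*Dlgap3* (chr4:127172630-127172879, plus strand): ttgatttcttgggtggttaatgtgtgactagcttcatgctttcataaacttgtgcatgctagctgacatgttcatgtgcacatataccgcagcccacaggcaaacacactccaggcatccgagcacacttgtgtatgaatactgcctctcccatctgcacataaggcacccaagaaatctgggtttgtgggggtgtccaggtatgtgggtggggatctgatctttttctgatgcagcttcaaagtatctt
The 6 windows did not share a base composition. *Shank3* had 31 CpG dinucleotides and a GC content of 82.4%, and *Dlgap4* had 37 and 74.0%. *Dlgap3* had 2 CpG dinucleotides and 46.8%, near *Dlg4* with 4 and 47.2%. Over the 27018 genes with a window, the median was 6 CpG dinucleotides and 52.0% GC. The GC box had 4 matches in *Shank3*, 2 in *Dlgap4* and 0 in the windows of *Dlgap1*, *Dlgap3*, *Dlg2* and *Dlg4*, and 33.0% of all windows held at least 1. The TATA box, TATAAA, and the cAMP response element, TGACGTCA, had no match on either strand in the 6 windows, against 13.0% and 1.599% of all windows. A match is a description of these letters only. In the GENCODE annotation, which lists more starts, the windows of *Shank3*, *Dlgap1* and *Dlgap3* held no exon. That of *Dlg4* lay within exons of other *Dlg4* transcripts, and those of *Dlg2* and *Dlgap4* overlapped exons of their own gene by 80 and 15 bases. Only the *Shank3* and *Dlgap1* windows lay before the whole gene. There *Dlgap3* starts at 127169204, *Dlg2* at 90476672 and *Dlgap4* at 156613705, so these windows lay inside their genes, after earlier starts. The printed *Dlgap3* letters therefore need not be those of its first promoter. Of the 250 bases of the *Dlgap4* window, 195 also lay in exons of *4930405A21Rik* on the opposite strand.

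The nearest relatives of these genes were given by a list of the rest of the DLG and DLGAP families and of the Homer adaptors. *Dlg1* (SAP97) had 293 and 316 CPM in control and 258 and 218 CPM in *Ash1L* shRNA samples and was DOWN (log2 fold change -0.36, standard error 0.13), though not with the replicate block. *Dlg3* (SAP102) at -0.17 and *Dlg5* at -0.37 were not called. *Dlgap5*, which acts at the mitotic spindle and not at synapses, had 6 and 50 counts in the control samples and 44 and 32 in the *Ash1L* shRNA samples, too uneven within the controls to show a difference. Homer proteins join SHANK to metabotropic glutamate receptors. *Homer2* had 112 and 111 CPM in control and 85.1 and 62.9 CPM in *Ash1L* shRNA samples, and was DOWN (log2 fold change -0.59, standard error 0.16), with the replicate block too. *Homer1* had 303 and 286 CPM in control and 281 and 396 CPM in *Ash1L* shRNA samples, so that its *Ash1L* shRNA samples fell on either side of the controls. *Homer3* was low throughout and UP, with 5.24 and 3.93 CPM in control and 6.21 and 10.4 CPM in *Ash1L* shRNA samples. Of the exonic bases of *Homer3*, 25.4% are shared with *Ddx49* on the opposite strand, and no source gives the strand setting of the counting. The call of *Homer3* was not kept with the replicate block.

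Across the other listed partners, 8 lists with 63 tested genes in all (the relatives and Homer genes included), 20 genes were DOWN and 4 were UP, beside 8.28% and 8.61% of all genes. With the replicate block, 14 were DOWN and 1 was UP. Of 18 other PDZ or MAGUK scaffolds of the excitatory synapse, 6 were DOWN and 1, *Tanc1* (0.86), was UP. *Lrrc7* (densin-180) with a log2 fold change of -0.42 and *Magi2* with -0.42 had the lowest P, while *Grip2* (-0.05) and *Begain* (0.04) had the highest. Of 11 tested signalling enzymes held by the scaffold, 4 were DOWN and 0 were UP. The guanine nucleotide exchange factor *Kalrn*, with 988 and 1042 CPM in control and 769 and 656 CPM in *Ash1L* shRNA samples, differed by -0.51 on the log2 scale, and the ARF exchange factor *Iqsec2* by -0.45. *Kalrn* was the only gene of the 63 past an adjusted p of 0.05 in DESeq2 (adjusted p 0.0398), and 0 passed in edgeR's quasi-likelihood test. *Nos1* (0.07) and *Sipa1l3* (0.08) were not called.

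Among the 8 actin and motor links the median log2 fold change was 0.14, with 1 DOWN (*Baiap2*, -0.33) and 1 UP (*Cttn*, cortactin, 0.29). Neither was called with the replicate block, nor *Cttn* in DESeq2, and *Dynll1* (-0.02) and *Abi1* (0.10) had the highest P. Of the 8 genes that add palmitate to PSD-95 or remove it, 3 were DOWN and 1, *Zdhhc2* (0.26), was UP, though not with the replicate block or in DESeq2. *Zdhhc15* fell with a log2 fold change of -0.98 and *Abhd17a* (*Fam108a* in the count files) with -0.62, while *Abhd17b* and *Abhd17c* were near 0 (-0.0046 and -0.0028). For all 5 adhesion partners of PSD-95, each *Ash1L* shRNA sample lay under each control in CPM, as for 26.8% of all genes. Of the 5, 2 were DOWN, *Adgrb2* (*Bai2* in the files, -0.40) and *Lgi1* (-0.45). *Adam22*, the receptor of LGI1, had a log2 fold change of -0.09, and *Adgrb3* one of -0.25. Of 6 tested genes for the inhibitory postsynapse, 2 were DOWN, among them *Lhfpl4* (-0.51), whereas *Gphn*, which encodes the main inhibitory scaffold gephyrin, had a log2 fold change of 0.11 and *Insyn1* (*6030419C18Rik* in the files) one of 0.11. Over the 4 samples, the listed genes with the centred log2 CPM nearest to the mean profile of the 9 scaffold genes, by Euclidean distance among the 63, were *Iqsec1* (distance 0.028), *Anks1b* (0.054) and *Magi1* (0.067).

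**Figure D5:**
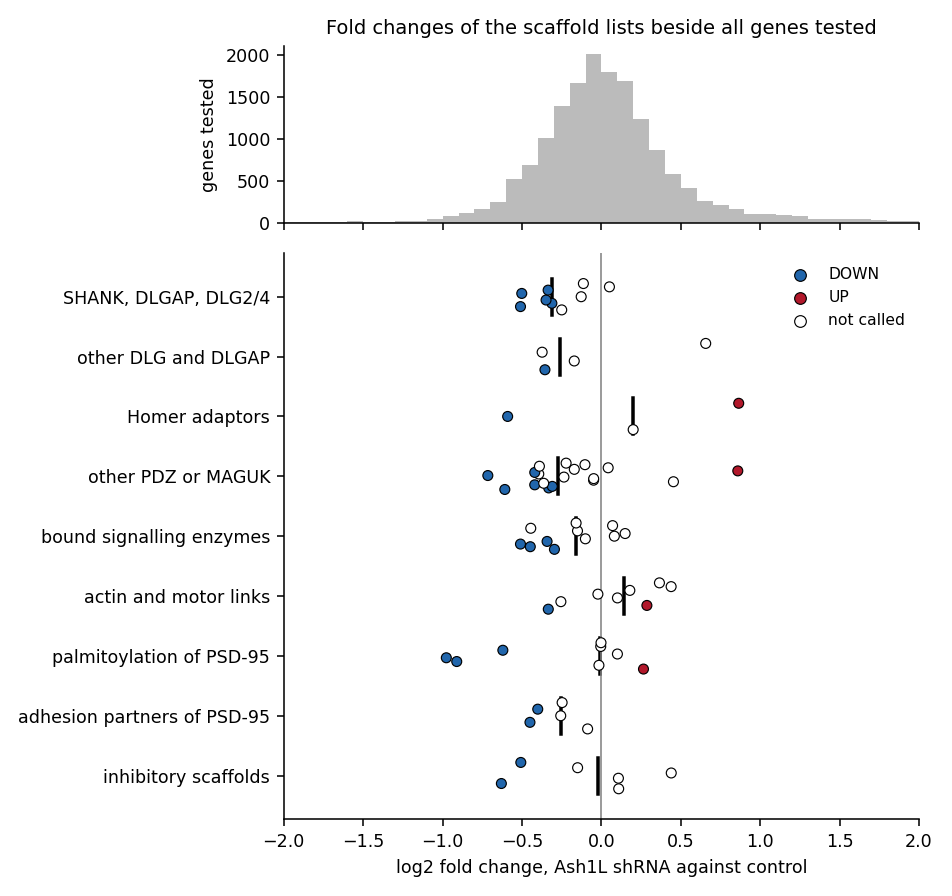
Log2 fold changes (*Ash1L* shRNA against control) of all genes tested as a histogram (upper panel, 234 genes beyond a log2 fold change of 2 left out) and of each gene in the scaffold lists (lower panel, points coloured by call, black bars for list medians). The median of the 9 scaffold genes lies at -0.31, and that of the actin and motor links at 0.14.

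Markers of cell types were read in the same way, beside 8.28% DOWN and 8.61% UP among all genes. All 8 excitatory neuron markers were counted, 4 were DOWN, and their summed level was 2838 and 3308 CPM in control and 2604 and 2104 CPM in *Ash1L* shRNA samples. The 10 pan-neuronal markers, with 0 DOWN and 0 UP, summed to 6794 and 6641 CPM in control and 6401 and 5713 CPM in *Ash1L* shRNA samples. Of 8 striatal neuron markers, 3 were UP and 1 was DOWN, with sums of 228 and 221 CPM in control and 252 and 351 CPM in *Ash1L* shRNA samples. Of 8 astrocyte markers, 5 were DOWN (5374 and 5693 against 4338 and 3228 CPM). Of 7 lymphocyte markers 5 were DOWN (42.0 and 74.7 against 31.6 and 16.8 CPM). Most of that sum was *Ptprc*, which was not called (30.2 and 56.3 against 28.0 and 13.9 CPM). Of 8 microglia markers 0 were called, but their sum was 990 CPM in *Ash1L* shRNA sample 1 and 406 CPM in sample 2, against 775 and 808 CPM in the controls. The sum of 5 markers of dividing cells was 14.4 CPM in control sample 1 and 42.2 to 48.3 CPM in the other 3 samples. No marker of these lists was at 0 in any sample. Of 8 interneuron markers 3 were DOWN (792 and 710.1 against 696 and 674 CPM), of 4 oligodendrocyte precursor markers 1 was UP (164 and 159 against 192 and 192 CPM), and the sums of 8 oligodendrocyte markers (1 DOWN) and 8 endothelial markers (1 UP) overlapped between the groups. In tissue RNA, fewer cells of a type and less RNA per cell cannot be told apart. By NeuN staining of PFC slices, not of these RNA samples, the study reported no significant loss of neurons.

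The scaffold genes are neuronal, so their counts were also set against those of the neuronal markers, a comparison chosen after the markers had been seen. Abundant genes weigh most in such sums. *Snap25* alone had 2881 and 2724 CPM in control samples, out of pan-neuronal sums of 6794 and 6641 CPM. In *Ash1L* shRNA samples it had 2649 and 2002 CPM, out of 6401 and 5713 CPM. The median log2 fold change of the 10 pan-neuronal markers was -0.0038, with 5 lower in the fit. That of the 8 excitatory markers was -0.42, with 7 lower. Per 100 pan-neuronal marker counts, *Shank2* had 1.67 and 1.78 counts in control and 1.49 and 1.18 in *Ash1L* shRNA samples, and *Dlgap3* had 2.21 and 2.36 in control and 1.88 and 1.69 in *Ash1L* shRNA samples. *Shank2*, *Dlgap1*, *Dlgap3* and *Dlgap4* were lower in both *Ash1L* shRNA samples on this scale, *Dlg2* was higher in both, and *Shank1*, *Shank3*, *Dlgap2* and *Dlg4* overlapped. *Shank3* had 1.35 and 1.53 in control and 1.22 and 1.36 in *Ash1L* shRNA samples. The excitatory sums, 2838 and 3308 CPM in control samples, were mostly *Camk2a* (1200 and 1523 CPM) and *Slc17a7* (924 and 1069 CPM). *Camk2a* was itself DOWN (log2 fold change -0.42), and its control samples differed by 0.34 on the log2 scale. Per 100 excitatory neuron marker counts, 7 of the 9 overlapped between the groups. *Dlgap3* was lower (5.29 and 4.74 against 4.63 and 4.58) and *Dlg2* was higher (16.4 and 14.4 against 18.0 and 24.1). *Shank2* overlapped, at 4.01 and 3.57 in control and 3.66 and 3.21 in *Ash1L* shRNA samples. The share of all genes whose groups did not overlap was not worked out on either marker scale, so these overlaps are a description only. The part of the markers in the falls of the scaffold genes was not tested beyond these values.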

How the data were processed

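RNA-seq libraries (stranded, depleted of ribosomal RNA) were made from PFC punches. By the study's methods, read pairs were mapped by the authors to mm10 using STAR, and featureCounts gave the deposited raw counts of 23420 gene symbols. The labels name Cutadapt and TopHat2 in one field and STAR in another, and the file headers name STAR. Settings for strand and multiple mapping are not given in the sources used here. From the deposited counts, genes were filtered with filterByExpr (16232 kept), scaled with TMM and tested in edgeR 4.0.16 (R 4.3.3) by glmQLFit and glmQLFTest, both robust, with Benjamini-Hochberg adjustment across all of them. Standard errors are the absolute log2 fold change over the square root of F, and 95% intervals use the t distribution with the degrees of freedom of the fit. The common biological coefficient of variation was 0.173. The labels call the samples of a group biological duplicates, and p-values measure the spread between these samples only. The quasi-likelihood test also draws the variance of each gene toward a trend over all genes, with a median of 6.34 total degrees of freedom. Replicates differed beyond counting error, with 13.0 between controls and 37.0 between *Ash1L* shRNA samples as chi-square per degree of freedom.

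Exon lengths, GC content (of the longest transcript) and positions came from GENCODE vM21 (GRCm38, the assembly of mm10), in which 98.4% of symbols were matched. *Insyn2a*, on the lists, was not analysed here. The genes and lists were chosen with earlier results of these data known. Named genes are the 9 members, *Ash1l*, their DLG, DLGAP and Homer relatives, the 2 genes of lowest and the 2 of highest P in each other list, and the 3 of most similar profile, except for an item that is not reported here. *Tanc1* and *Zdhhc2*, and the markers, are named after their values were seen. No label ties same-numbered samples to each other, and their deviations from the group means correlated with an r of -0.11 across genes, so the replicate number was used only as an alternative. The other alternatives were DESeq2 1.42.0, edgeR's likelihood ratio test and newer quasi-likelihood method, scaling by RLE, by the upper quartile or by library size, testing without a filter or with at least 10 counts in every sample, spline corrections for GC content and exonic length, these with the block, a limit of 1.5-fold, and the omission of each sample. Counts per 100 neuronal marker counts and a crossed block were added after the data had been seen.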

Additional observations from a re-analysis of the deposited data

How the results depend on the processing

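The 9 log2 fold changes kept their sign in every alternative except that of *Dlg2*, which was -0.015 with a GC correction and -0.016 with the replicate block and GC correction together, and ran from -0.0034 (without *Ash1L* shRNA sample 2) to 0.099 (without sample 1) with samples left out. *Shank2* and *Dlgap3* were DOWN under every alternative that kept all 4 samples and the 1.2-fold limit. The number DOWN was 2 with the replicate block, 3 with the block and GC correction, 2 with the block and length correction, 2 in the likelihood ratio test, and 0 at a 1.5-fold limit. It was 4 with library-size scaling and with the GC correction, where *Shank3* was not called (P 0.052 in each), and 4 with the length correction, where *Dlgap1* was not called (P 0.054). With samples left out it ran from 1 to 5, and 0 to 3 of the 9 passed an adjusted p of 0.05. Their median was -0.27 with library-size scaling, -0.27 with the GC correction and -0.27 with the block and GC correction, and ran from -0.33 to -0.24 with samples left out. Library-size scaling shifted the median of all genes by 0.04.

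Of the other listed genes, 7 were DOWN and 2 UP at the 1.5-fold limit. UP were 2 in DESeq2, the likelihood ratio test, the GC, the length, and the block and length corrections, and 1 with the block or the block and GC correction. With samples left out, 2 to 27 were DOWN and 0 to 7 UP. Over all genes, 491 were DOWN and 765 UP at the 1.5-fold limit, and 899 UP with the block and GC correction. With samples left out, 306 to 2718 were DOWN and 423 to 2368 UP. Genes past an adjusted p of 0.05 numbered 420 in DESeq2, 479 in the likelihood ratio test, 34 without a filter, 0 with the block, and 2 with the block and either correction, and 0 to 2502 with samples left out. Over all genes, DOWN and UP were highest without *Ash1L* shRNA sample 1 and lowest without control sample 2. The GC correction gave 1618 DOWN and 1122 UP, against 1344 and 1397 as reported. The cause of these shifts was not tested. The deviations of same-numbered samples did not move together, so the numbers were not taken to pair samples. With crossed numbers, added after seeing this, 1736 genes were DOWN, 1541 UP and 16 passed an adjusted p of 0.05. Of the 9 scaffold genes 5 were then DOWN and 0 UP, and of the other listed genes 23 were DOWN and 5 UP. Counting error of the 9 genes was at most 2.81%, so their precision was limited by the number of samples and not by depth.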
